A study of Saccharomyces cerevisiae with 12 samples.

Results

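The genes described here are 10 genes of the tricarboxylic acid (TCA) cycle and of the retrograde response of budding yeast, Saccharomyces cerevisiae: CIT1, CIT2, ACO1, IDH1, IDH2, KGD1, KGD2, FUM1, MDH1 and DLD3. They were chosen by name, each through the probe set that the array's annotation assigns to it, and all 10 were measured among 5449 genes with a probe set. Each has 1 probe set, and all 10 passed the filter on dim signals that left 5345 genes for testing. The arrays were Affymetrix expression arrays, and the values are log2 levels, so a difference of 1 is a 2-fold difference.

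Total RNA was measured in 12 samples, 4 groups of 3 that the design text calls biological samples, all in the haploid laboratory background BY4741 grown in YPD, a rich glucose medium. Separate cultures for the 3 samples of a group are not stated, so p-values measure only the spread between these samples, which may be technical. The groups were wild type left untreated, wild type given Congo Red, a gcn5 mutant left untreated and the gcn5 mutant given Congo Red. Congo Red is a cell wall stressor that attaches to chitin. Cultures were split before treatment, and the treated portion received 30 µg/ml of the dye over 3 h while the untreated portion kept growing. Gcn5 is the catalytic acetyltransferase subunit of SAGA and acts on histones. The labels give the strain only as a gcn5 mutant, without the allele or the number of clones.

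The TCA cycle oxidises acetyl groups in the mitochondrial matrix and supplies 2-oxoglutarate for glutamate synthesis. In yeast on glucose much of it is held low by glucose repression, and the Hap2/3/4/5 activator raises many of its genes when respiration is used. When mitochondria fail, the retrograde pathway sends the transcription factors Rtg1 and Rtg3 to the nucleus. There they induce CIT2 and DLD3 and keep CIT1, ACO1, IDH1 and IDH2, the enzymes on the way to 2-oxoglutarate, expressed.

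The labels were checked on GCN5 first. Its log2 level lay between 8.13 and 8.33 in untreated wild type and between 8.20 and 8.30 in treated wild type. The mutant values lay between 3.36 and 4.08 untreated and between 3.02 and 3.61 with Congo Red, so strain and signal matched on all 12 arrays. Array medians ran from 8.98 to 9.05. Of the markers that BY4741 lacks in whole or part, URA3 and MET17 stayed below log2 4 on every array, LEU2 lay between 3.93 and 5.29, and HIS3 lay between 9.24 and 10.08. Where the HIS3 probes lie relative to the deleted part is not known here. Markers of the MATa mating type, which BY4741 has, were present but lower in the mutant: 4 of 6 passed as lower when untreated, beside 4.92% of all genes, and 3 of 6 in Congo Red, beside 6.4%, and their mean level was 10.77 to 11.76 in untreated wild type against 8.79 to 9.83 in the untreated mutant. All 6 were lower in the mutant with no overlap between the strains, untreated and in Congo Red, beside 15.1% and 14.4% of all genes. MFA1, BAR1 and STE6 passed in both conditions and STE2 only untreated. Of those calls STE2 and STE6 untreated were lost in 10 and 3 of 12 fits that left out 1 array, and STE6 in Congo Red in 3. STE2 untreated did not pass without both mutant arrays numbered 3 (adjusted p = 0.111). In a second fit with the array number as a block, all 6 markers were called lower untreated, beside 9.19% of all genes. In that fit STE2 had adjusted p = 6.0e-04, and 5.0e-04 without both mutant arrays numbered 3. Of 4 markers of the other mating type, MF(ALPHA)1 was below 4 on all 12 arrays, MF(ALPHA)2 lay between 4.65 and 5.81, STE3 between 4.81 and 5.53 and SAG1 between 7.92 and 8.45. Of 2 meiotic markers of diploids, IME1 passed in no comparison without a block. SPO11 was called higher with Congo Red in wild type (1.42, adjusted p = 0.0403), a call lost in 9 of 12 fits that left out 1 array (adjusted p up to 0.149). Those markers' part in the strain differences below was not tested.

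Both mutant arrays numbered 3 stood farthest from their group means, by a root mean square of 0.29 untreated and 0.31 in Congo Red over all tested genes, where the other 10 arrays lay between 0.15 and 0.23. For the 10 genes, strain differences and mutant responses that were called are given with and without them, apart from the number block in Congo Red. For other genes they are given in part. Treated and untreated arrays of the same number in 1 strain deviated together (correlations of 0.53 to 0.84 across genes), where the labels describe split cultures. The labels do not say that equal numbers mark 1 split culture, so culture below means arrays of 1 strain with the same number, read as parts of 1 culture. The Congo Red effects are therefore given both from the fit of 4 group means and, where it changes a call, with the culture as a block.

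**Figure D1:**
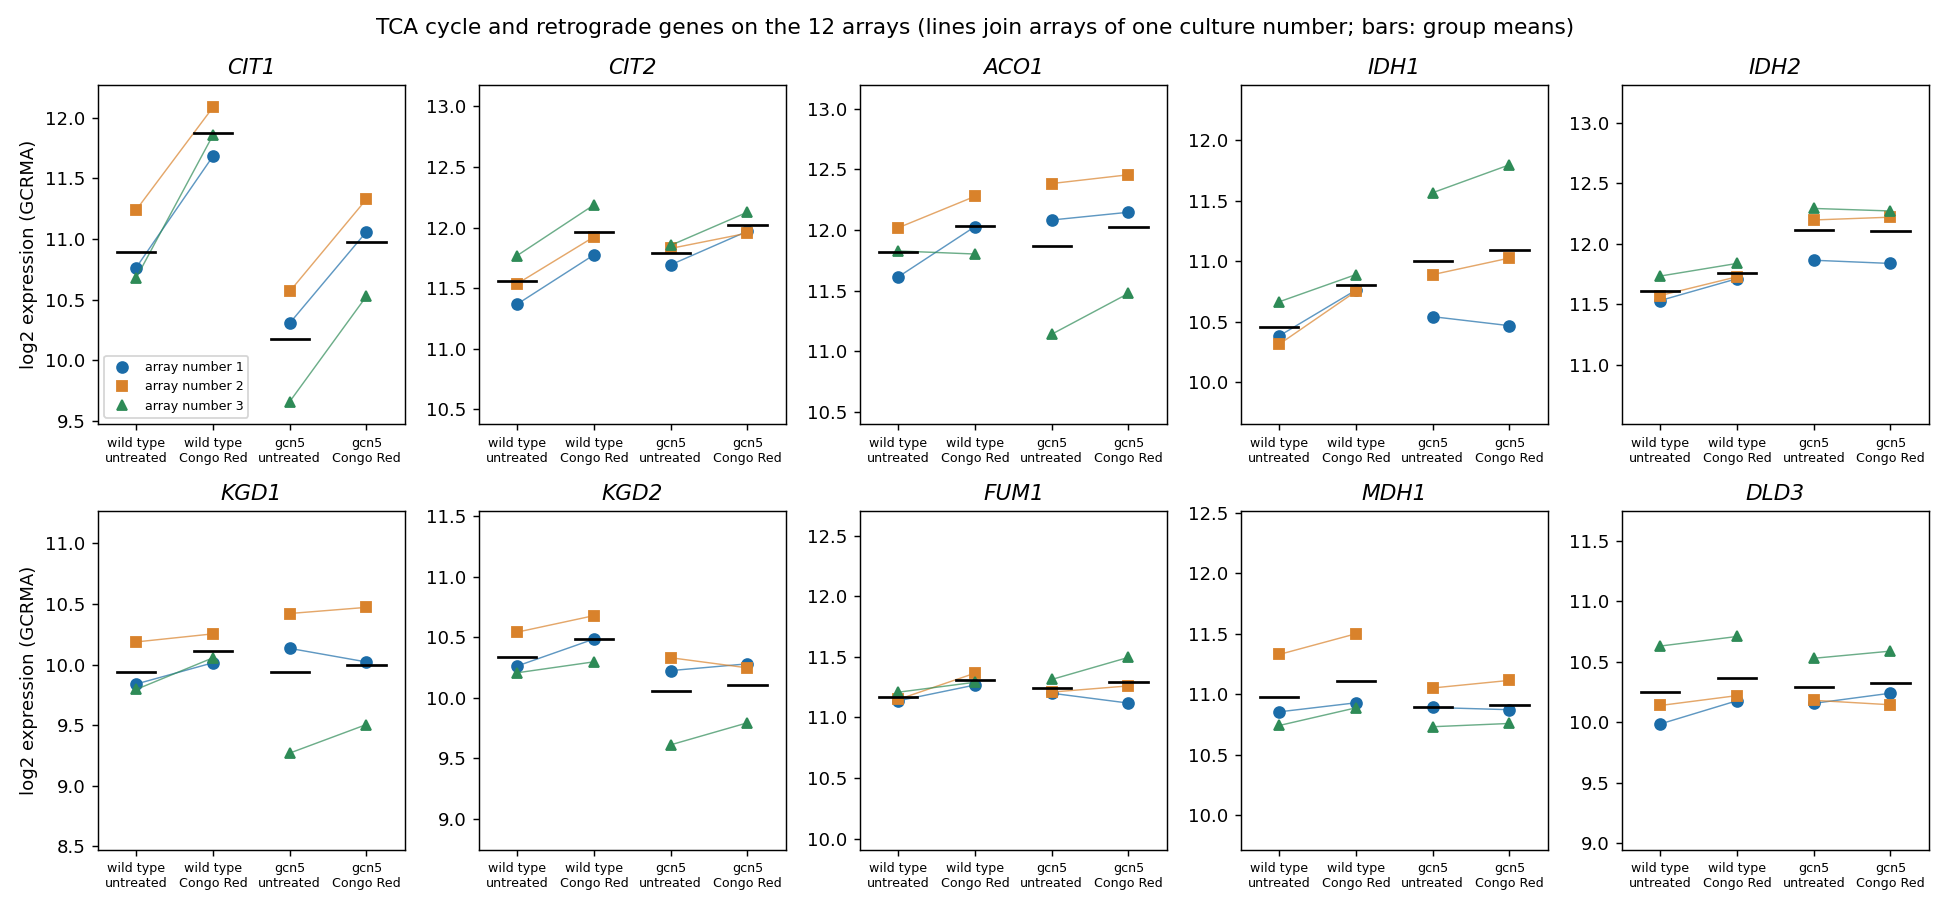
Log2 expression of the 10 genes on each of the 12 arrays, by group; symbols and colours give the array number, lines join the untreated and treated array of one number in a strain, and bars are group means over 3 arrays. CIT1 is higher with Congo Red in all 6 pairs, IDH2 is higher in the untreated mutant than in untreated wild type, and the mutant arrays numbered 3 are low for ACO1 and KGD1 and high for IDH1.

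The first question was the response of wild type to Congo Red. The mitochondrial citrate synthase gene CIT1, whose enzyme condenses acetyl-CoA with oxaloacetate at the start of the cycle, rose almost to the 2-fold mark. Its level was 10.76, 11.24 and 10.68 on the untreated arrays numbered 1, 2 and 3, and 11.68, 12.09 and 11.86 with Congo Red. Every treated array was above every untreated one. The log2 change was 0.98 ± 0.26 (SE, n = 3 arrays per group; 1.97-fold; limma, adjusted p = 0.0377). With the culture as a block the SE of the CIT1 change shrank to 0.08 and the adjusted p was 1.4e-04. Between arrays of the same number CIT1 was higher by 0.92, 0.85 and 1.18. The CIT1 call of the fit without a block was fragile. It was lost, with adjusted p up to 0.141, without either untreated wild type array numbered 1 or 3, without any 1 of the wild type Congo Red arrays, and without either gcn5 array numbered 1. Without both mutant arrays numbered 3 its adjusted p was 0.00545.

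CIT2 encodes the peroxisomal citrate synthase and is the classic readout of the retrograde pathway. It was 11.37, 11.54 and 11.77 on the untreated wild type arrays and 11.78, 11.92 and 12.19 with Congo Red. The groups just failed to overlap, with the highest untreated and the lowest treated array almost level. The CIT2 change of 0.40 ± 0.13 (SE) missed the threshold without a block (limma, adjusted p = 0.0790), and CIT2 rose with the culture as a block (SE 0.07, adjusted p = 0.00393), at 0.41, 0.39 and 0.42 between arrays of the same number. IDH1, a subunit of the NAD-dependent isocitrate dehydrogenase, missed and passed in the same way. Its levels of 10.38, 10.31 and 10.66 untreated and 10.76, 10.75 and 10.89 treated gave 0.35 ± 0.31 (SE; adjusted p = 0.614), and IDH1 rose with the block (SE 0.08, adjusted p = 0.0185).

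The other 7 genes did not pass in either fit. In order of the cycle they are the aconitase gene ACO1 (0.22 ± 0.31), the second isocitrate dehydrogenase subunit gene IDH2 (0.15 ± 0.14), and the 2-oxoglutarate dehydrogenase genes KGD1 (0.17 ± 0.29) and KGD2 (0.15 ± 0.20). The fumarase gene FUM1 (0.14 ± 0.10) and the mitochondrial malate dehydrogenase gene MDH1 (0.13 ± 0.19) close the cycle, all as log2 change ± SE. DLD3, whose cytosolic enzyme oxidises D-2-hydroxyglutarate and which is a second retrograde target, changed by 0.12 ± 0.20 (SE). DLD3 levels of 9.99, 10.14 and 10.63 untreated and 10.18, 10.22 and 10.71 treated overlapped, with adjusted p = 0.820, and adjusted p = 0.265 with the block.

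In sum over the 10 genes in wild type, 1 rose, 0 fell and 9 did not pass, beside 5.33% of all 5345 genes called higher and 3.91% lower. With the culture as a block 3 of 10 rose and 0 fell, beside 12.3% of all genes called higher and 11.5% lower. The log2 change was above 0 in 10 of 10, against 46.3% of all genes, with a median of 0.16 beside -0.02 over all genes. The groups stood apart, with Congo Red higher, for CIT1, CIT2, IDH1 and FUM1, that is 4 of 10 beside 13.8% of all genes.

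**Figure D2:**
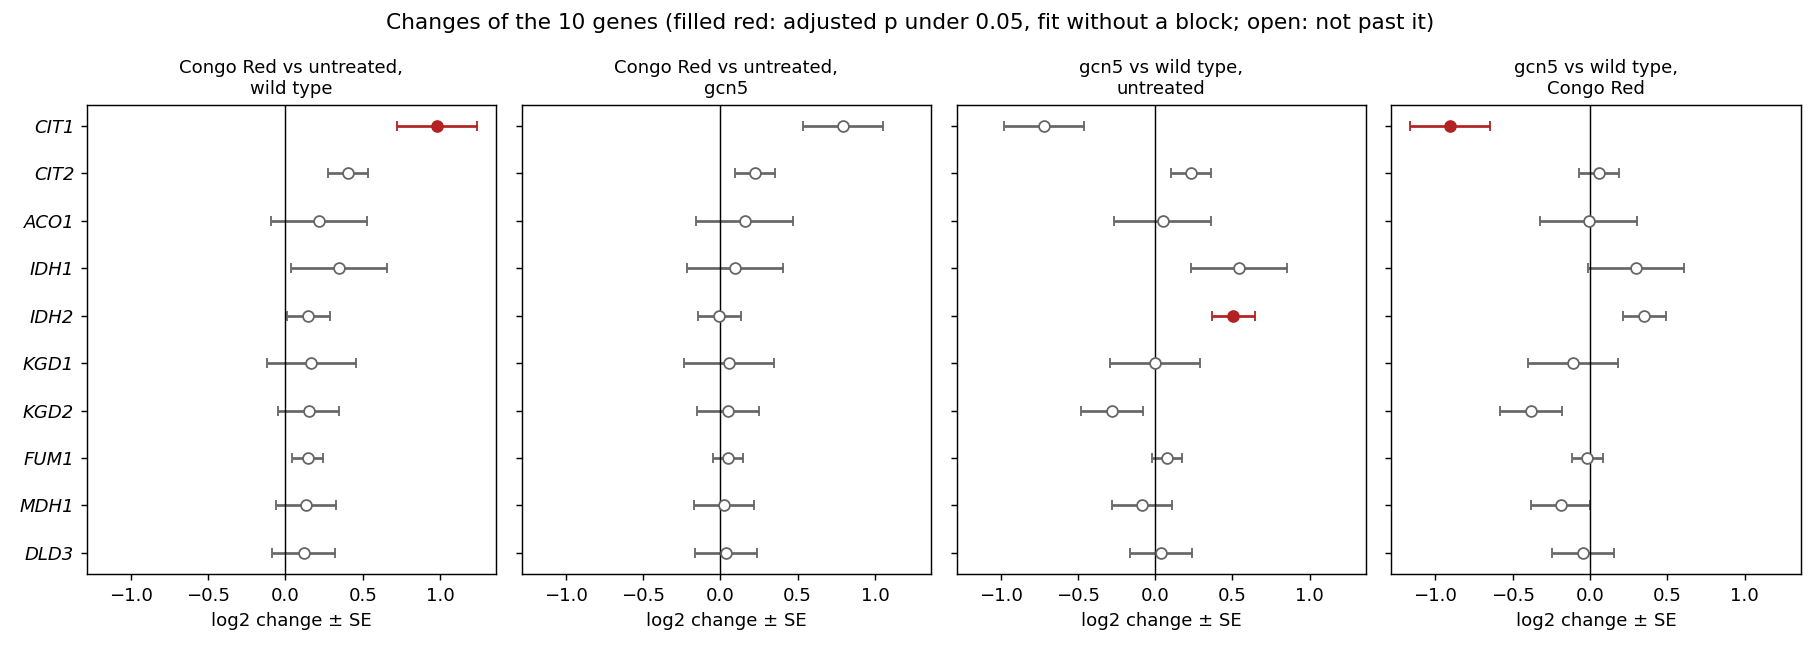
Log2 change ± SE of the 10 genes in each comparison of 2 groups (limma, 4 group means over 12 arrays, no block). Filled red points passed the threshold on the adjusted p: CIT1 in wild type with Congo Red, IDH2 between the untreated strains and CIT1 between the strains in Congo Red.

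The second question was whether the genes respond in the gcn5 mutant. CIT1 was 10.30, 10.57 and 9.66 on the untreated mutant arrays and 11.06, 11.33 and 10.53 with Congo Red. The groups overlapped, since the treated array numbered 3 was below the untreated array numbered 2. The change was 0.80 ± 0.26 (SE; 1.74-fold), and CIT1 did not pass without a block (limma, adjusted p = 0.345). Between arrays of the same number CIT1 was higher by 0.75, 0.76 and 0.87, and it rose with the culture as a block (SE 0.08, adjusted p = 0.00202). Without both mutant arrays numbered 3 the CIT1 change was 0.76, called with the block (adjusted p = 0.00796).

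CIT2 was 11.69, 11.83 and 11.85 in the untreated mutant and 11.97, 11.95 and 12.13 with Congo Red, and the groups did not overlap. The CIT2 change of 0.23 ± 0.13 (SE) did not pass, with adjusted p = 0.753, nor with the block at adjusted p = 0.124. The remaining 8 genes changed by between -0.01 (IDH2) and 0.16 (ACO1) and did not pass in either fit. Over the 10 genes 0 passed, beside 1.09% of all genes called higher and 0.0748% called lower, and 1 of the 10, CIT1, had an unadjusted p under 0.05, beside 8.1% of all genes. With the block 1 of 10 rose and 0 fell, beside 2.81% of all genes higher and 1.16% lower. The groups stood apart, with Congo Red higher, for 1 of 10, beside 5.99% of all genes. The change was above 0 in 9 of 10, beside 40.8% of all genes, with a median of 0.05 beside -0.03.

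The third question was whether the response differs between the strains. No gene of the 10 passed the interaction of strain and treatment, where 0.0561% of all genes did (limma), and 0 of the 10 had an unadjusted p under 0.05, beside 5.8% of all genes. With the culture as a block 0 of 10 passed as well, beside 0.561% of all genes. The estimates were below 0 for 10 of 10 genes, beside 53.6% of all genes, from -0.06 for ACO1 to -0.25 for IDH1, which means a smaller change in the mutant. For CIT1 the response in the mutant minus that in wild type was -0.19, with a 95% interval from -0.99 to 0.62, or from -0.46 to 0.08 with the block. For CIT2 it was -0.18, with an interval from -0.58 to 0.22, or from -0.40 to 0.05 with the block. For IDH1 it was -0.25, from -1.21 to 0.72, or from -0.52 to 0.02 with the block. These intervals all hold 0, and a p that misses the threshold does not show that the strains respond alike.

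The fourth question was what loss of GCN5 does to the genes without Congo Red. IDH2 was higher in the mutant, at 11.87, 12.20 and 12.29 against 11.53, 11.57 and 11.73 in wild type. All mutant arrays lay above all wild type arrays. The change was 0.50 ± 0.14 (SE, n = 3 per group; 1.42-fold; limma, adjusted p = 0.0429), and with the replicate number as a block the IDH2 adjusted p was 0.0061. That block fits 1 effect per number shared by all 12 arrays, those in Congo Red included. Same-numbered arrays of the strains had correlations of 0.39 to 0.53 untreated, but 0.33, -0.08 and 0.11 in Congo Red. The IDH2 call without a block was lost, with adjusted p up to 0.154, on leaving out any 1 wild type array of either condition, either untreated mutant array numbered 2 or 3, or the mutant Congo Red array numbered 2. Without both mutant arrays numbered 3 the IDH2 change was 0.42 (adjusted p = 0.111), and with the block as well it was 0.47 (adjusted p = 0.0199).

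CIT1 went the other way. Its mutant levels of 10.30, 10.57 and 9.66 were all below the wild type levels of 10.76, 11.24 and 10.68. The CIT1 difference of -0.72 ± 0.26 (SE) missed the threshold without a block (adjusted p = 0.113), and CIT1 was lower in the mutant with the number as a block (SE 0.15, adjusted p = 0.0100). Without both mutant arrays numbered 3 the CIT1 difference was -0.46 (adjusted p = 0.185), and with the block as well it was -0.52 (adjusted p = 0.0108). The other 8 genes did not pass in either fit over all arrays. With the block and without both mutant arrays numbered 3, CIT2 (0.31, adjusted p = 0.0330) and ACO1 (0.36, adjusted p = 0.0471) were called higher too. IDH1 was 10.54, 10.89 and 11.57 in the mutant against 10.38, 10.31 and 10.66, a difference of 0.54 ± 0.31 (SE; adjusted p = 0.307), or 0.26 without both mutant arrays numbered 3. CIT2 differed by 0.23 ± 0.13 (SE; adjusted p = 0.293) and DLD3 by 0.04 ± 0.20 (SE; adjusted p = 0.930).

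Between the untreated strains 1 of 10 genes was called higher and 0 lower, beside 4.9% and 4.92% of all genes. The groups stood apart for IDH2, higher in the mutant, and for CIT1, lower, beside 17.3% and 15.1% of all genes. With the number as a block 1 was called higher and 1 lower, beside 9.97% and 9.19%. The median difference was 0.04, beside 0.02 over all genes, and 7 of 10 estimates were above 0, beside 52.6% of all genes.

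The fifth question was how the strains differ in Congo Red. CIT1 was 11.06, 11.33 and 10.53 in the mutant and 11.68, 12.09 and 11.86 in wild type, with no overlap. The CIT1 difference was -0.90 ± 0.26 (SE; limma, adjusted p = 0.0484), that is 1.87-fold lower in the mutant. Without both mutant arrays numbered 3 it was -0.68 (adjusted p = 0.0470). The CIT1 call was lost, with adjusted p up to 0.146, without either untreated wild type array numbered 1 or 3, any 1 of the wild type Congo Red arrays, either mutant array numbered 1, or the mutant Congo Red array numbered 3. IDH2 was 11.84, 12.22 and 12.27 in the mutant against 11.71, 11.73 and 11.84 in wild type, where the ranges just met, and its difference of 0.35 ± 0.14 (SE) did not pass (adjusted p = 0.138). KGD2, the gene of the succinyltransferase of 2-oxoglutarate dehydrogenase, was 10.28, 10.25 and 9.79 in the mutant against 10.49, 10.68 and 10.30 in wild type. No KGD2 array of the mutant reached the lowest wild type array, and its difference of -0.38 ± 0.20 (SE) did not pass (adjusted p = 0.254). In Congo Red 0 of 10 genes were called higher and 1 lower, beside 4.57% and 6.4% of all genes. The groups stood apart, with the mutant lower, for CIT1 and KGD2, 2 of 10 beside 14.4% of all genes, and the median difference was -0.03 beside -0.00108.

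Across the 4 groups the order of levels can be read gene by gene. CIT1 ran from 10.18 ± 0.47 in the untreated mutant through 10.89 ± 0.30 in untreated wild type and 10.97 ± 0.41 in the treated mutant to 11.88 ± 0.20 in treated wild type (SD, n = 3 each). The 2 middle groups of CIT1 differed by less than their spread. CIT2 ran from 11.56 ± 0.20 in untreated wild type through 11.79 ± 0.09 in the untreated mutant and 11.96 ± 0.21 in treated wild type to 12.02 ± 0.10 in the treated mutant (SD, n = 3 each), and the ranges of each pair of neighbouring CIT2 groups overlapped. IDH2 was at 11.61 ± 0.11 and 11.76 ± 0.07 in wild type untreated and treated, and at 12.12 ± 0.22 and 12.11 ± 0.24 in the mutant (SD, n = 3 each). FUM1 was the steadiest, with all 12 arrays between 11.12 and 11.50, a range smaller than in all but 8.94% of tested genes. CIT1 was the most variable, with a range of 2.43 that exceeded that of 97.5% of tested genes.

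The spread within groups was itself ordered by array number in several of the genes. In each of the 4 groups CIT2, IDH1, IDH2 and DLD3 were highest on the array numbered 3, which holds for 7.26% of all tested genes. KGD2 and MDH1 were lowest on the array numbered 3 in each of the 4 groups, which holds for 8.34% of all genes. CIT1, ACO1 and KGD1 were lowest there in 3 of 4 groups, and FUM1 highest there in 3 of 4. The split was widest in the mutant. ACO1 was 12.08 and 12.38 on the untreated mutant arrays numbered 1 and 2 and 11.14 on the array numbered 3. KGD1, the gene of the dehydrogenase component of the 2-oxoglutarate complex, was 10.13, 10.42 and 9.27 on the same arrays. IDH1 did the reverse, at 10.54, 10.89 and 11.57. The labels do not say what an array number marks beyond the replicate, and this ordering was noticed after the values were seen.

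**Figure D3:**
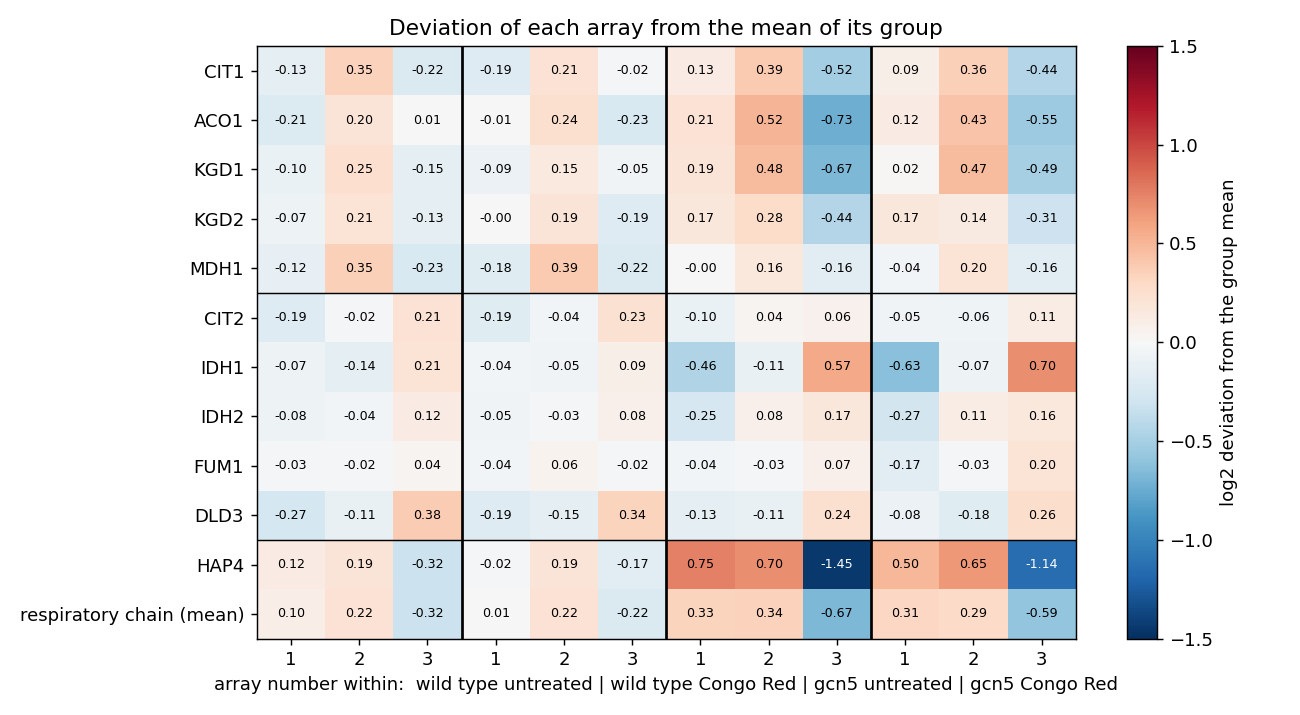
Log2 deviation of each array from the mean of its group, for the 10 genes, for HAP4 and for the mean of 31 respiratory chain genes; columns are the array numbers 1 to 3 within each group. On the mutant arrays numbered 3 the upper 5 genes, HAP4 and the respiratory mean are below their group means and the 5 genes from CIT2 to DLD3 above them.

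Respiratory chain genes moved with this split. Their mean level was 10.70 and 10.71 on the untreated mutant arrays numbered 1 and 2 and 9.70 on the array numbered 3, and in Congo Red it was 10.84, 10.83 and 9.94. In wild type it was 10.64, 10.76 and 10.22 untreated and 10.68, 10.89 and 10.45 in Congo Red. Of the 31 genes 23 were lowest on the array numbered 3 in all 4 groups. HAP4, which encodes the regulated subunit of the Hap2/3/4/5 activator and was singled out after its values were seen, was 9.49 and 9.43 on the untreated mutant arrays numbered 1 and 2 and 7.28 on the array numbered 3, and 9.64, 9.79 and 8.0 in Congo Red. The part of this split in the strain differences of CIT1 and IDH2 was not tested beyond the values without those arrays given above.

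Genes whose profile over the 12 arrays lay closest to a member were found by the root mean square difference of mean-centred log2 values. ACO1 and KGD1 were each other's nearest gene among all tested genes, at 0.11, where the median gene was 0.43 from ACO1, and NDI1, the internal NADH dehydrogenase gene, was among the 3 nearest to both. The nearest gene to CIT1 was HEM25, which encodes a mitochondrial glycine carrier needed for heme synthesis, at 0.22 beside a median of 0.71. The nearest to CIT2 was MAM3 at 0.09, to IDH1 MMT2 at 0.12, to IDH2 SNF2 at 0.07 and to MDH1 COQ1, a ubiquinone synthesis gene, at 0.06. The nearest to KGD2 was MRPL1 at 0.10, to FUM1 SSK2 at 0.05 and to DLD3 SSQ1 at 0.13. IDH1 and IDH2, which encode 1 enzyme, lay 0.25 apart, and IDH2 ranked 51 by nearness to IDH1.

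The other genes of the cycle were read as a list, of which 12 were tested. In wild type none of the 12 passed with Congo Red without a block. All 12 estimates were above 0, beside 46.3% of all genes, and the median was 0.29 beside -0.02 over all genes. With the culture as a block 7 of 12 rose and 0 fell, beside 12.3% of all genes called higher. They included the succinyl-CoA ligase genes LSC1 at 0.35 ± 0.07 and LSC2 at 0.47 ± 0.08 (SE, with the block) and the succinate dehydrogenase gene SDH4 at 0.51 ± 0.09 (SE, with the block). CIT3, a minor mitochondrial citrate synthase gene, and MDH2, the cytosolic malate dehydrogenase gene of gluconeogenesis, rose in that fit as well, by 0.40 ± 0.12 and 0.32 ± 0.07 (SE). CIT3 was dim, between log2 4.79 and 5.57 over all arrays, a range that overlaps that of LEU2 given above. In the mutant 0 of 12 passed in either fit, beside 1.09% of all genes called higher without a block and 2.81% with it. The median there was 0.11, beside -0.03 over all genes. The interaction of strain and treatment passed for 0 of 12 in either fit, beside 0.0561% and 0.561% of all genes. Between the untreated strains the mutant had more MDH2, at a difference of 0.80 ± 0.12 (SE; adjusted p = 0.00247). It also had more IDP1, the mitochondrial NADP-dependent isocitrate dehydrogenase gene, at 0.60 ± 0.10 (SE; adjusted p = 0.00447). In Congo Red both were higher again, at 0.58 for MDH2 (adjusted p = 0.00997) and 0.45 for IDP1 (adjusted p = 0.0134). Leaving out both mutant arrays numbered 3, MDH2 differed by 0.86 untreated and 0.60 in Congo Red (adjusted p = 0.00511 and 0.0198), and IDP1 by 0.51 and 0.40 (adjusted p = 0.00835 and 0.0177).

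**Figure D4:**
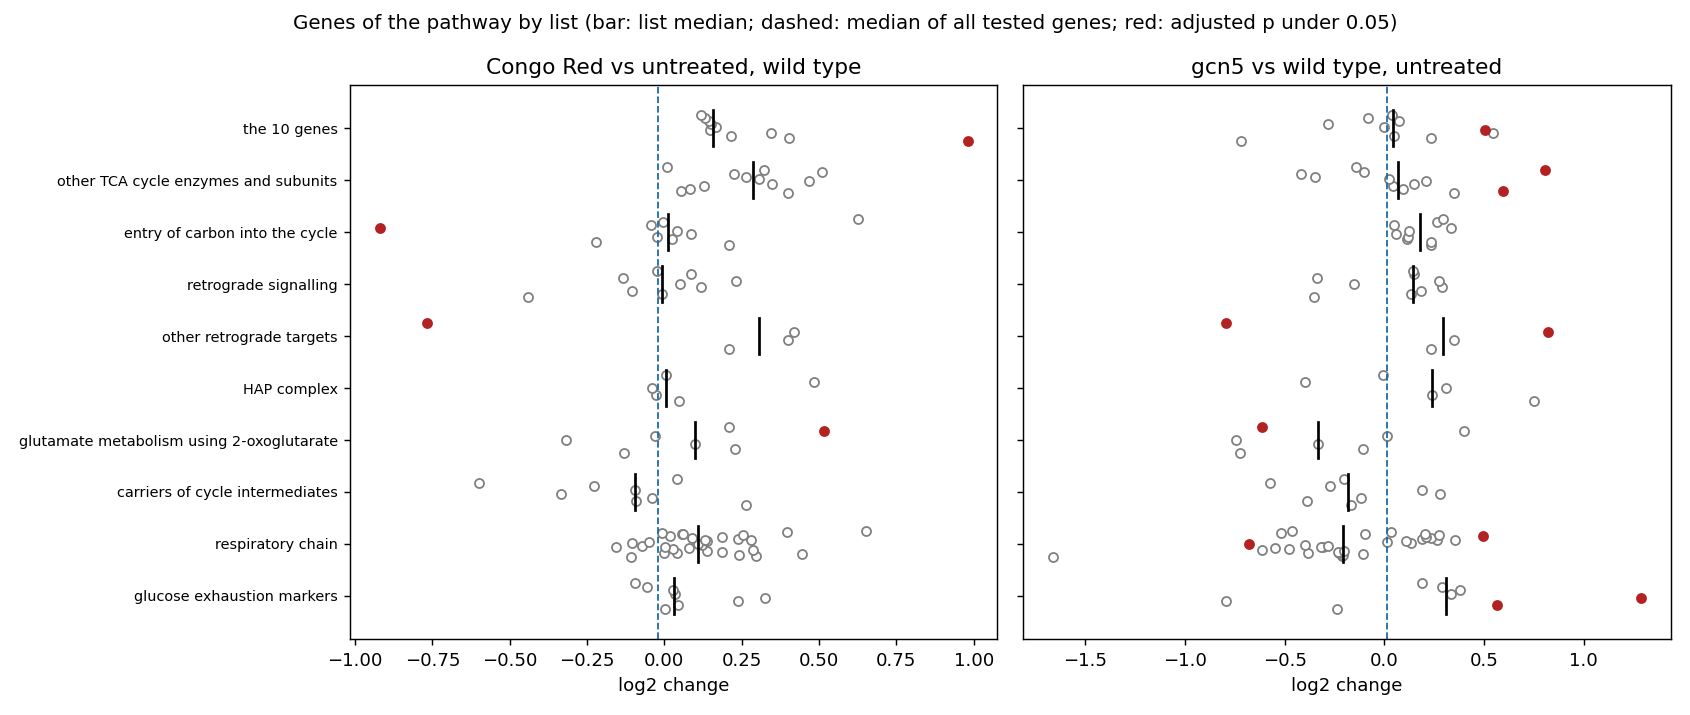
Log2 change of each gene of the pathway lists for Congo Red in wild type and for the untreated mutant against wild type (limma, no block). Bars are list medians, the dashed line is the median of all tested genes, and red points passed the threshold; the cycle lists lie right of the dashed line in wild type with Congo Red, with CIT1 the only called gene among them.

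Of the retrograde signalling genes, RTG1, RTG2, RTG3, MKS1, BMH1, BMH2, LST8, GRR1 and TOR1, 0 of 9 passed in any of the 5 comparisons without a block. RTG1 was 6.45, 6.62 and 6.75 in untreated wild type and 6.08, 6.04 and 6.38 with Congo Red, a change of -0.44 ± 0.17 (SE; adjusted p = 0.157). RTG3 changed by -0.11 ± 0.09 (SE; adjusted p = 0.590). Both encode subunits of the factor that acts on CIT2 and DLD3. With the block BMH2, which encodes a 14-3-3 protein that restrains the pathway through Mks1, was the 1 of 9 called higher in wild type, beside 12.3% of all genes. Between the untreated strains BMH2 was called higher and LST8 lower with the block (adjusted p = 0.0413 and 0.0429). The BMH2 call was lost without both mutant arrays numbered 3 (adjusted p = 0.0686) and that of LST8 was not (adjusted p = 0.0134).

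Other genes listed as responding to the retrograde state did not move as one, and their dependence on Rtg1 and Rtg3 was not tested. ATO3, a putative ammonium exporter gene, fell with Congo Red by 0.77 ± 0.10 in wild type (SE; adjusted p = 9.5e-04) and by 0.49 ± 0.10 in the mutant (SE; adjusted p = 0.0410). The second ATO3 call was lost, with adjusted p up to 0.204, in 9 of 12 fits that left out 1 array (all but the untreated wild type arrays numbered 2 and 3 and the treated mutant array numbered 3), and without both mutant arrays numbered 3 (adjusted p = 0.0511). ATO3 was also lower in the untreated mutant, with a difference of -0.79 ± 0.10 (SE; adjusted p = 9.3e-04). PDH1, a propionate metabolism gene, was higher there by 0.82 ± 0.16 (SE; adjusted p = 0.00998). Those differences without both mutant arrays numbered 3 were -0.78 for ATO3 (adjusted p = 0.00221) and 0.95 for PDH1 (adjusted p = 0.00835). In Congo Red ATO3 was again called lower in the mutant (-0.52, adjusted p = 0.0073) and PDH1 higher (0.60, adjusted p = 0.0379). That PDH1 call was lost in 7 of 12 fits that left out 1 array. With Congo Red in wild type PDH1 rose with the culture as a block, by 0.42 ± 0.12 (SE; adjusted p = 0.0354), and did not pass without one. CIT3, which is in this list too, rose in that fit as given above. The anaplerotic pyruvate carboxylase gene PYC1 did not pass, at 0.21 ± 0.12 with Congo Red in wild type and 0.23 ± 0.12 between the untreated strains (SE).

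Among the genes that feed or drain the cycle, MAE1, the malic enzyme gene that takes malate to pyruvate, fell with Congo Red in wild type by 0.92 ± 0.20 (SE; adjusted p = 0.0140). It was the 1 of 10 entry genes to pass, beside 3.91% of all genes called lower. That MAE1 call was lost without the untreated wild type array numbered 3 or the Congo Red array numbered 2, with adjusted p up to 0.0635. In the mutant MAE1 did not pass without a block and fell with the culture as a block, by 0.59 ± 0.12 (SE; adjusted p = 0.0259), a call lost without both mutant arrays numbered 3 (-0.49, adjusted p = 0.102). IDP2, which makes 2-oxoglutarate in the cytosol, rose with Congo Red in wild type by 0.52 ± 0.13 (SE; adjusted p = 0.0330), the 1 of 7 in its list, beside 5.33% of all genes called higher. That IDP2 call was lost (adjusted p up to 0.131) without any 1 untreated wild type array, treated wild type array 1 or 2, or untreated mutant array 2. Between the untreated strains IDP3, the peroxisomal enzyme gene, differed by -0.61 ± 0.14 in the mutant (SE; adjusted p = 0.0220), beside 4.92% of all genes called lower. That IDP3 call was lost (adjusted p up to 0.0821) without untreated wild type array 1 or 2 or untreated mutant array 1 or 3. It was also lost without both mutant arrays numbered 3 (adjusted p = 0.0514), but not with the number block as well (adjusted p = 0.0050). With that block over all arrays IDP3 (adjusted p = 0.0169) and GDH1 (-0.72, adjusted p = 0.0028) were lower and IDP2 higher, beside 9.19% and 9.97% of all genes. In Congo Red IDP3 was called lower too (-0.59, adjusted p = 0.0229), lost in 4 fits that left out 1 array. None of 8 carriers of cycle intermediates passed in any comparison without a block. With the culture block 2 of 8 were called lower in wild type with Congo Red, beside 11.5% of all genes. They were DIC1 (-0.33 ± 0.09, adjusted p = 0.0286) and OAC1 (-0.60 ± 0.09, adjusted p = 0.0026; SE). OAC1 was the 1 of 8 lower in the untreated mutant with the number as a block, beside 9.19% of all genes. It was called both over all arrays and without both mutant arrays numbered 3 (adjusted p = 0.0067 and 0.0224).

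With Congo Red in wild type HAP4 differed by 0.48 ± 0.57 without a block (SE; adjusted p = 0.732) and rose with the culture as a block (SE 0.11; adjusted p = 0.0140), and the same fit gave 0.41 ± 0.11 in the mutant (SE; adjusted p = 0.0861). The HAP4 response in the mutant minus that in wild type was -0.07 ± 0.16 (SE) in that fit and did not pass (adjusted p = 0.852). HAP1, in the same list, was higher in the untreated mutant with the number as a block (0.75, adjusted p = 0.0085). It was also called with that block without both mutant arrays numbered 3 (0.60, adjusted p = 0.0215). Respiratory chain genes passed with Congo Red in wild type in 0 of 31 cases without a block and in 7 of 31, all higher, with it, beside 12.3% of all genes called higher. In the untreated mutant ATP14 was called higher (0.49, adjusted p = 0.0305) and COX9 lower (-0.68, adjusted p = 0.0467), 1 of 31 each, beside 4.9% and 4.92%. ATP14 was called higher in Congo Red too (0.46, adjusted p = 0.0372). Those calls were lost in 4, 9 and 7 of 12 fits that left out 1 array. With the number as a block 2 of 31 were higher untreated (ATP3 and ATP14) and 2 lower (COX9 and ATP20), beside 9.97% and 9.19%. There the adjusted p was 0.0037 for ATP14 and 7.9e-04 for COX9. Without both mutant arrays numbered 3 as well, only the ATP20 call was lost (adjusted p = 0.130).

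Markers of glucose exhaustion, which would rise if a culture had run out of glucose, were read beside the cycle genes. With Congo Red 0 of 8 passed in wild type, with a median of 0.03 and a mean level of 5.83 to 6.06 untreated and 5.84 to 6.21 treated. With the culture as a block 1 of 8 rose there, beside 12.3% of all genes called higher: PCK1, the gene of the first gluconeogenic step. In the untreated mutant 2 of 8 were higher than in wild type, beside 4.9% of all genes, PCK1 by 1.29 ± 0.17 and ICL1, the isocitrate lyase gene of the glyoxylate cycle, by 0.56 ± 0.15 (SE). Their adjusted p was 0.00122 and 0.0389, and the mean level of the 8 was 6.12 to 6.28. The ICL1 call was lost (adjusted p up to 0.136) without untreated wild type array 1 or 2, any 1 untreated mutant array, or the treated array 2 of either strain, and without both mutant arrays numbered 3 (adjusted p = 0.103). In Congo Red PCK1 was higher in the mutant by 0.91 (adjusted p = 0.0061), and MLS1, the malate synthase gene, differed by -0.96 (adjusted p = 0.0387), a call lost (adjusted p up to 0.133) without untreated wild type array 1, treated wild type array 1 or 2, or any 1 treated mutant array, and without both mutant arrays numbered 3 (adjusted p = 0.0860). Between the untreated strains MLS1 was called lower with the number as a block (-0.80, adjusted p = 0.0356). MLS1 was dim, between log2 3.94 and 5.79 over all arrays. PCK1 without both mutant arrays numbered 3 differed by 1.13 untreated and 0.79 in Congo Red (adjusted p = 0.00171 and 0.00729), and with the block as well MLS1 untreated differed by -1.09 (adjusted p = 0.0061). The part of these markers in the strain differences was not tested.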

How the data were processed

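The deposited log2 levels came from GCRMA, per the submitters' processing notes, and no version of it was found in the sources used here. GCRMA corrects background by probe sequence and normalizes arrays by quantiles, so a shift of all transcripts would not be seen. That the scale is log2 follows from the range of the deposited values. Of 5716 probe sets 5498 had 1 gene symbol, 0 several and 218 none. Symbols were updated through Entrez identifiers in the RefSeq table of assembly R64 (12 changed), which was used for names only. The highest probe set was kept for 47 genes with several, giving 5449. Genes over log2 4 on at least 3 of 12 arrays, 5345, were tested.

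Tests used limma 3.58.1 under R 4.3.3 (a linear model of the 4 group means, 8 residual degrees of freedom, eBayes, Benjamini-Hochberg over all tested genes, threshold 0.05). Only the fit without a block was tried on simulated data, whose arrays were independent. The fits with a block were not, nor were arrays that deviate together. Correlations of same-numbered arrays were 0.53 to 0.74 in wild type, 0.57 to 0.84 in the mutant and 0.39 to 0.53 between untreated strains. The labels describe divided cultures, so culture, or number between untreated strains, was a block in a second fit. The number block fits no separate effect for each culture. In Congo Red the strains' correlations were 0.33, -0.08 and 0.11, so that number pairs no arrays. The number of arrays limits precision.

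Members and lists were chosen with earlier results of these data known. The text names the 10 genes, GCN5, up to 4 passing members of each list, relatives by name, and the nearest profiles; HAP4, the 9 signalling genes, members of lists called only with a block and genes that did not pass (PYC1) were named beyond that rule after values were seen. Alternatives were array centring, filters, probe set averaging, trend and robust moderation, fitting only compared groups, blocks, and leaving out arrays. No sequences are shown. Lists were described by counts, with no set test.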

Additional observations from a re-analysis of the deposited data

How the results depend on the processing

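Over 490 values of the 10 genes outside the fits that left out 1 array, 451 kept their direction and side of the threshold, 5 lost the call, 13 gained it and 21 changed sign, none of these a called value. The cause of the changes below was not tested, except that leaving out arrays or groups leaves fewer samples. The authors' quantile normalization cannot be changed here, and no signal over background was used, so how far dim genes are limited is unknown.

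Members called with Congo Red in wild type were 1, and 3 with the culture as replicate block, and in the mutant 0 and 1. Between the untreated strains 1 was called, 2 with the number as replicate block, and 0 with only the groups compared, without all 4 arrays numbered 3 or without both gcn5 arrays numbered 3. Between the strains in Congo Red 1 was called, and 0 with only the groups compared or without all 4 arrays numbered 3. There the number pairs no arrays, and as a block it gave 3 (CIT1, IDH2 and KGD2). Leaving out 1 array gave 0 to 1 in wild type with Congo Red and in both strain comparisons.

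The replicate block together with leaving out both gcn5 arrays numbered 3, a setting chosen after seeing the data, gave 3, 1, 0, 4 and 2 members called for Congo Red in wild type, in the mutant, the interaction, and the strains untreated and in Congo Red, and 1465, 184, 33, 1030 and 1307 genes.

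Genes called with Congo Red in wild type were 494, 1272 with the culture block and 260 to 572 without 1 array. In the mutant they were 62, 212 with the block, 15 with only the groups compared, 39 without both gcn5 arrays numbered 3 and 17 to 59 without 1 array. For the interaction they were 3, 6 with trend and robust moderation, 30 with the block, 13 without all 4 arrays numbered 3 and 3 to 5 without 1 array. Between untreated strains they were 525, 1024 with the number block and 265 to 615 without 1 array. In Congo Red they were 586, 1048 with the number block, 316 with only the groups compared and 350 to 616 without 1 array. The block changed no other call among the 10 genes than those given.

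Signs changed as follows. With Congo Red in the mutant IDH2 was 0.010 with arrays centred on their medians, and KGD1 -0.031, KGD2 -0.014 and FUM1 -0.015 without all arrays, or both gcn5 arrays, numbered 3, the latter also with the block. Between untreated strains KGD1 was -0.014 when centred and DLD3 -0.083 without both gcn5 arrays numbered 3. Between the strains in Congo Red ACO1, IDH1 and KGD1 were 0.15, -0.0096 and 0.11 without all 4 arrays numbered 3, and 0.27, -0.054 and 0.14 without both gcn5 arrays. With the block too, ACO1, KGD1 and DLD3 were 0.21, 0.090 and 0.0029 there.

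Without 1 array, ranges crossing 0 were, with Congo Red in wild type, MDH1 -0.066 to 0.31 and DLD3 -0.052 to 0.31. In the mutant they were ACO1 -0.21 to 0.43, IDH1 -0.25 to 0.41, IDH2 -0.13 to 0.13, KGD1 -0.28 to 0.31, KGD2 -0.17 to 0.21, FUM1 -0.052 to 0.14, MDH1 -0.076 to 0.10 and DLD3 -0.10 to 0.16. For the interaction they were CIT1 -0.45 to 0.036, ACO1 -0.42 to 0.22, IDH1 -0.60 to 0.066, KGD1 -0.45 to 0.14, KGD2 -0.32 to 0.058, MDH1 -0.28 to 0.090 and DLD3 -0.27 to 0.088. Between untreated strains they were ACO1 -0.21 to 0.41, KGD1 -0.24 to 0.34, MDH1 -0.20 to 0.093 and DLD3 -0.10 to 0.23. In Congo Red they were CIT2 -0.038 to 0.17, ACO1 -0.22 to 0.27, IDH1 -0.054 to 0.61, KGD1 -0.34 to 0.14, FUM1 -0.12 to 0.070, MDH1 -0.30 to 0.0066 and DLD3 -0.18 to 0.12.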
